A study of Mus musculus with 2 samples.

Results

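Brown fat taken from the animal was compared with brown adipocytes grown and differentiated in a dish, gene by gene, in a wild type (WT) and in a mutant (KO) pair of RNA samples. The mutant mice lack PKGI, a kinase activated by cGMP and made from the Prkg1 gene, and all animals had the C57BL/6N background. The series consists of 2 two-colour Agilent arrays and both were used, so that 4 RNA samples enter: untreated brown adipose tissue of a WT mouse (labelled with Cy3) and of a KO littermate (Cy5) on one array, and adipocytes differentiated in vitro from brown adipose tissue of a WT mouse (Cy5) and of a KO littermate (Cy3) on the other. The study itself set KO against WT within each array, and the comparison of tissue with culture cuts across the arrays. The sources used here do not state the age and sex of the animals, the depot or the differentiation protocol.

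Brown adipose tissue makes heat. Its adipocytes are rich in mitochondria, burn fatty acids and glucose, and dissipate the energy through the uncoupling protein UCP1, under control of noradrenaline released by sympathetic nerves. The tissue is densely supplied with capillaries and also holds precursor cells, immune cells, nerve fibres and blood, and it lies against skeletal muscle. Cultures start from the precursor-rich fraction of dissociated tissue, are expanded by division and are then differentiated with hormones, so they lack blood flow and innervation.

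Each value is the log2 of a background-corrected, quantile-normalised signal, and a difference is tissue minus culture. In WT, Cy3 is set against Cy5, and in KO Cy5 against Cy3, so a dye bias of a gene enters the 2 differences with opposite sign and cancels in their mean. For the same reason a gap between the WT and KO differences of a gene cannot be told apart from dye bias. Tissue and culture lie on different arrays, so array and material cannot be told apart either. Each of the 4 samples is 1 RNA preparation with no replicate array, no test was run, and every value describes these samples only. The WT and KO differences are shown side by side in place of a replicate error. Paired numbers give WT first and KO second, and those in brackets after a gene are its differences. Levels of different genes come from different probes and are not compared with each other.

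A gene was called when tissue and culture differed at least 2-fold in the same direction in both genotypes. Of 16256 genes kept, 2057 (12.7%) were higher in tissue and 2223 (13.7%) lower, so 48.1% of the called genes were higher. In WT alone 17.5% of genes were higher and 16.6% lower, and in KO alone 17.2% and 19.0%. Across genes, which are not independent replicates and share the 4 libraries, the WT and KO differences had a Pearson r of 0.887 and a Spearman rho of 0.868. Of the genes called in WT, 77.2% were called the same way in KO, and of those called in KO, 72.7% were called the same way in WT. At least 8-fold differences in both genotypes were found for 301 genes higher and 259 lower in tissue, and 13 genes were past 2-fold in opposite directions in the 2 genotypes.

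**Figure D1:**
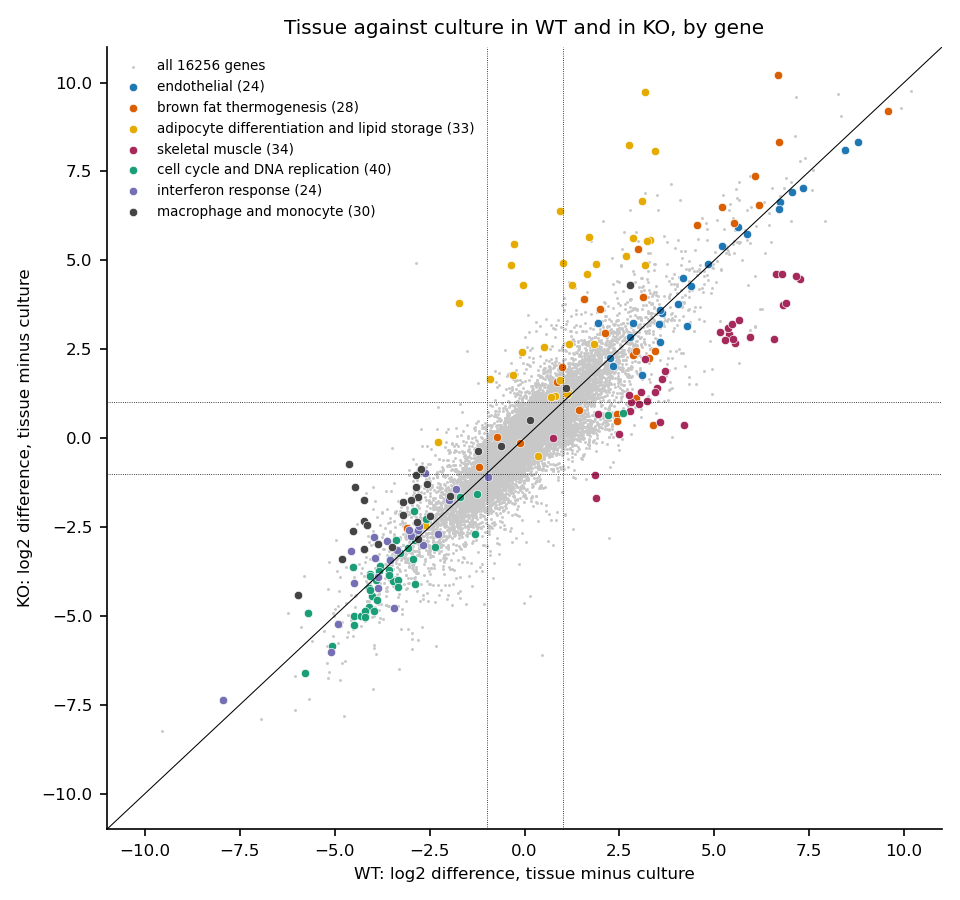
Log2 difference between tissue and culture in WT (x axis) and in KO (y axis) for each of the 16256 genes (grey), with the kept members of 7 gene lists in colour. The solid line marks equal differences and the dotted lines 2-fold. Endothelial, cell cycle and interferon genes lie mostly along the line, and thermogenic genes lie on both sides of it. Adipocyte genes lie mostly above the line and skeletal muscle genes mostly below it.

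The normalisation gives the 4 channels the same distribution of signals, so all differences are relative to the rest of the transcripts in a sample. The 10 spiked-in control transcripts read 1.52 ± 0.24 (SD over the 10 controls, range 1.11 to 1.94) higher on the log2 scale in tissue than in culture after this step, in the mean of WT and KO. In single genotypes their differences ranged from -1.75 to 4.36 in WT and from -1.15 to 4.75 in KO. No source used here states the amounts added, so unequal spiking and unequal total RNA cannot be told apart on this scale. The share of called genes that were higher was 27.7% when each channel was only centred on its median and 10.9% with no normalisation. It was 3.97% on the spiked-in scale, where the mean difference of the controls, 1.52, was subtracted from every difference. The median difference of all genes was -0.02 in the main processing, -0.16 with median centring, -0.81 with none and -1.55 on the spiked-in scale, and differences are read relative to it. Relative to that median, 33 of the 41 gene lists kept their direction with median centring or none, and lists that did not are named as such. In the mean of both genotypes these scalings differ by the same value for every gene, so they give the same relative medians. The spiked-in scale shifts every gene alike from the main processing, so it could not change a direction relative to that median. Besides those chosen by a rule of size, genes are named here for their known role after their values were seen. On the spiked-in scale itself 17 lists lay on the other side of 0.

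Prkg1, the targeted gene, was examined first. Its level was 7.76 in WT tissue and 6.73 in KO tissue, and 7.80 in WT culture and 6.93 in KO culture, so both KO samples were below both WT samples. Within a genotype tissue and culture were close, with differences of -0.03 in WT and -0.21 in KO, and its 3 kept probes ranged from -0.80 to 0.68 in the mean difference. No source used here states the deleted exons, and the probes may lie outside them.

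Transcripts that differ by sex did not match between the samples. Xist, which coats the silenced X in female cells, read 6.54 in WT tissue, 11.69 in KO tissue, 9.41 in WT culture and 6.77 in KO culture. The Y-linked translation factor Eif2s3y read 12.81 in WT tissue, 12.36 in WT culture and 12.28 in KO culture, and was not well above background in KO tissue (6.18), at least 68.3-fold lower there than in KO culture. Ddx3y, an RNA helicase of the Y chromosome, had the same order, with 10.40, 10.26 and 10.87 against 6.43. WT tissue and KO culture thus had high Y-linked transcripts and low Xist, KO tissue the reverse, and WT culture had both kinds of transcript. The part of sex in the other results was not tested.

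The heat-producing programme of brown fat was the first group examined. Of 28 kept genes of thermogenesis and brown fat identity (2 more were not well above background in any channel), 18 were higher in tissue in both genotypes and 1 was lower, with a median difference of 2.95 in WT and 2.46 in KO. Between the cultures, 11 of the 28 genes were at least 2-fold lower in KO than in WT and none was higher, and between the tissues 6 were lower. Over all genes, 3.1% were at least 2-fold lower in KO than in WT culture and 2.02% higher, and between the tissues 3.0% were lower in KO and 1.22% higher. Ucp1 read 17.57 in WT tissue and 15.78 in KO tissue, against 10.87 in WT culture and 7.45 in KO culture. Tissue was 104-fold higher in WT and 320-fold higher in KO. In both cultures its probe was still well above background.

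Cidea, a lipid droplet protein abundant in brown fat, read 16.79 and 17.31 in WT and KO tissue and 10.11 and 7.11 in WT and KO culture. Cox8b, a subunit of cytochrome c oxidase made in brown fat, heart and muscle, showed the largest mean difference of both genotypes among the thermogenic genes. It read 16.79 and 16.14 in tissue and 7.20 and 6.95 in culture (769-fold in WT and 586-fold in KO). In KO alone Cidea differed more (1176-fold). For Cox8b the cultures were alike, whereas for Ucp1 and Cidea the WT culture lay between the KO culture and the tissue. Plin5, which ties lipid droplets to mitochondria, differed by 6.06 in WT and 7.36 in KO. Pdk4, a kinase that shuts glucose out of oxidation, differed by 6.17 and 6.55, and Cox7a1, another tissue-specific oxidase subunit, by 5.20 and 6.51.

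The regulators of the programme named here differed less than Ucp1, Cidea, Cox8b, Plin5, Pdk4 and Cox7a1. Ppargc1a, a coactivator that drives mitochondrial biogenesis, was 1.98 higher in WT tissue and 3.63 higher in KO tissue than in the matching cultures, a call lost with median centring, with no normalisation and on the spiked-in scale. Its relative Ppargc1b differed by 3.0 and 5.31. Ebf2, a transcription factor that marks brown adipocytes, differed by 1.58 and 3.91, and Prdm16, a determinant of brown fat fate, by 0.99 and 1.99. Dio2, which activates thyroid hormone, was 2.45 higher in WT tissue and 0.49 in KO tissue, and the fatty acid elongase Elovl3 read 9.94 in WT tissue but 7.49 in KO tissue, with 6.99 in WT culture and no signal well above background in KO culture.

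Not all brown fat markers were higher in tissue. Lhx8, a homeobox gene used as a brown fat marker, read 9.99 and 10.52 in tissue and 13.07 and 13.04 in culture, 8.5-fold lower in WT tissue and 5.73-fold lower in KO tissue. Zic1, another such marker, differed by -1.21 and -0.81. Both are transcription factors. Zic1 was below 2-fold in KO and was therefore not called. The single probe for Adrb3, the noradrenaline receptor of rodent adipocytes, was well above background in WT culture only, and gives no level in tissue.

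**Figure D2:**
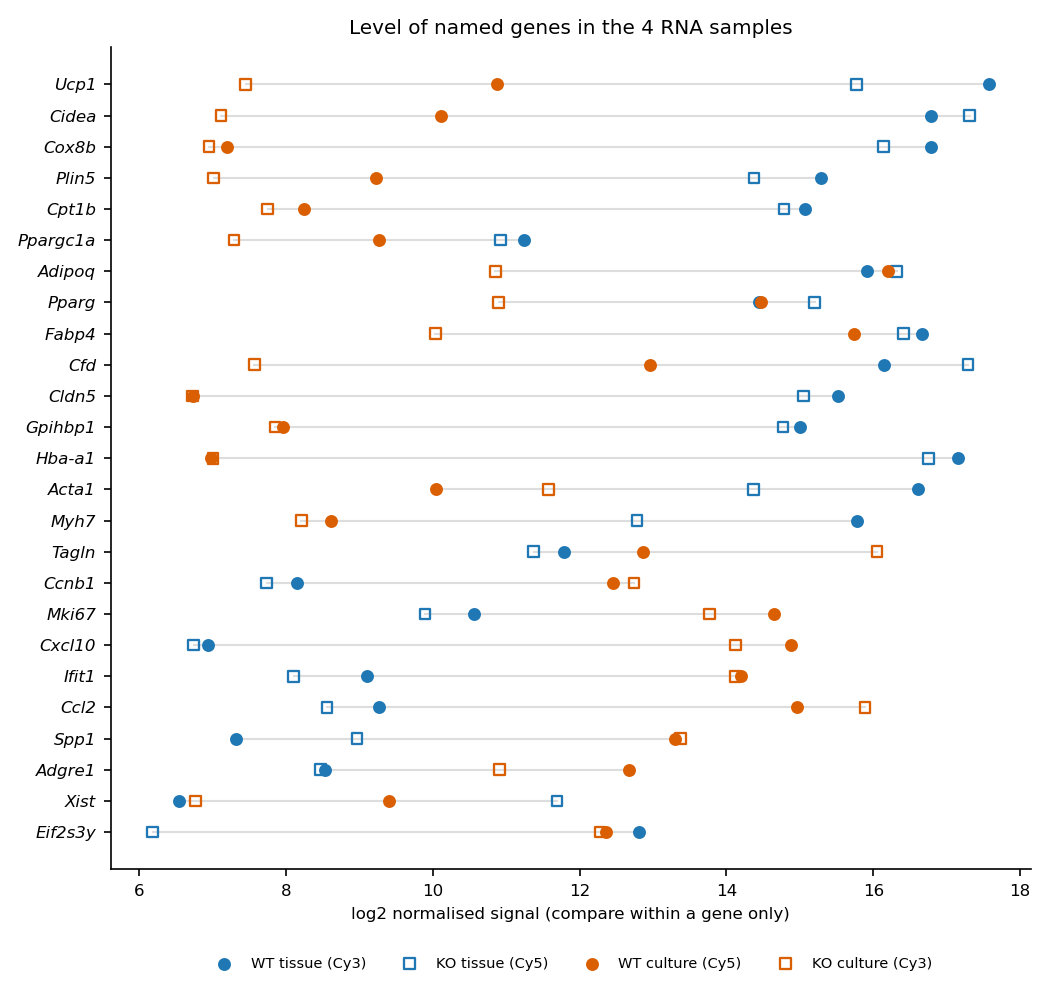
Log2 normalised signal (x axis) of 25 named genes in the 4 RNA samples, with filled circles for WT, open squares for KO, blue for tissue and orange for culture. Levels are comparable within a gene only. The cultures lie left of the tissues for thermogenic, endothelial and blood genes and right of them for cell cycle, interferon and macrophage genes, while for Adipoq and Pparg only the KO culture lies apart.

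General adipocyte genes differed between tissue and culture more in KO than in WT. All 33 genes of adipocyte differentiation and lipid storage were kept, 18 were higher in tissue in both genotypes, and 1 was lower. In WT 18 of the 33 were at least 2-fold higher in tissue, and in KO 30. The median difference was 1.11 in WT and 4.31 in KO. Within the cultures, 25 of the 33 genes were at least 2-fold lower in KO than in WT (3.1% of all genes were) and 1 was higher, whereas in tissue 1 was lower and 3 were higher. Both cultures were labelled brown adipocytes, and the KO culture carried adipocyte transcripts at a much lower level than the WT culture.

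Pparg, the master regulator of fat cell differentiation, read 14.44 in WT tissue, 15.20 in KO tissue and 14.47 in WT culture, but 10.90 in KO culture. Adipoq, which encodes the hormone adiponectin, read 15.91, 16.32 and 16.20 against 10.85 in KO culture. Fabp4, a fatty acid carrier of adipocytes, read 16.67 and 16.41 in tissue, 15.74 in WT culture and 10.03 in KO culture. In these 3 genes the WT culture was within 1 log2 unit of the WT tissue, and the KO culture stood apart. The insulin-responsive glucose transporter Slc2a4 differed by 1.24 in WT and 4.31 in KO, Lpl, which frees fatty acids from lipoproteins, by -0.06 and 2.43, and Cebpa, a partner of Pparg in differentiation, by 0.51 and 2.57.

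Other genes of the adipocyte list were higher in tissue in both genotypes. Cfd, the adipocyte protease adipsin, read 16.14 and 17.29 in tissue, 12.96 in WT culture and 7.57 in KO culture, which makes 9.07-fold in WT and 844-fold in KO. Plin1, the main coat protein of the droplet, differed by 3.10 and 6.68, Plin4 by 3.45 and 8.07, and Cidec, which enlarges droplets, by 2.75 and 8.25. The lipases Pnpla2 (3.22 and 5.53) and Lipe (3.31 and 5.57), which release stored fat, followed the same order. Calls for Plin1, Plin4, Cidec and Cfd were lost with no normalisation, where the median of all genes was -0.81 in the mean of both genotypes.

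Among the early regulators of differentiation, Cebpb also differed more in KO than in WT, by 0.94 in WT and 1.62 in KO. Cebpd did not follow this pattern, with 0.34 and -0.50. Lep, which encodes leptin and is typical of white fat, was well above background in WT culture only, where it was at least 4.86-fold higher than in WT tissue. Nnat, an imprinted gene expressed in adipocytes, was lower in tissue (-2.62 and -2.44). Rbp4, the retinol carrier, was lower in WT tissue than in WT culture (-1.72) and higher in KO tissue than in KO culture (3.79). In the white and beige fat list, 3 of 17 genes were higher in tissue and 3 lower, with a median of -0.25 that turned to 0.12 relative to all genes with median centring or none.

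**Figure D3:**
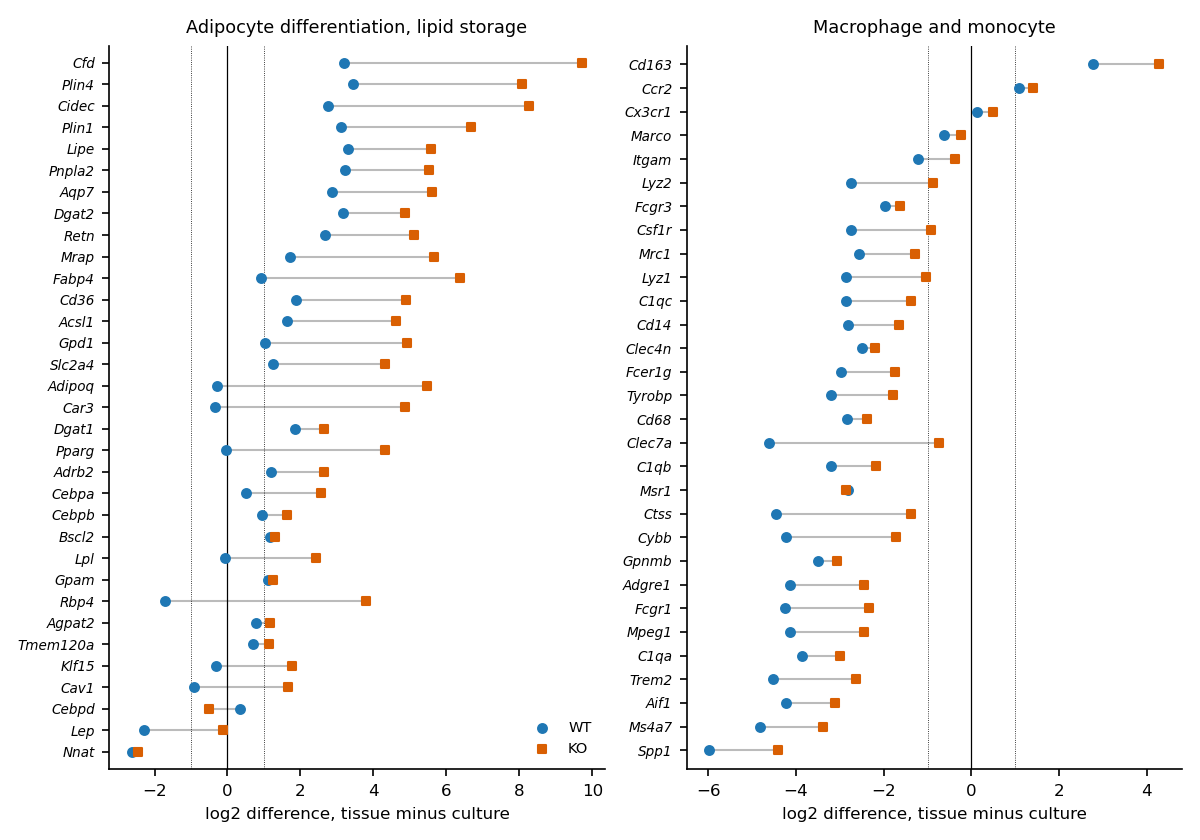
Log2 difference between tissue and culture for each kept gene of the adipocyte list (left) and of the macrophage and monocyte list (right), in WT (blue circles) and KO (orange squares), joined by a line. In the adipocyte list the KO values lie to the right for most genes, and in the macrophage list most values lie left of 0 with WT further from it.

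Mitochondrial genes were higher in tissue as a broad, moderate shift. Of 78 kept genes of the respiratory chain and ATP synthase, 53 were higher in tissue in both genotypes and 1 was lower, with a median of 1.49 in WT and 1.38 in KO, and of 25 genes of the TCA cycle and pyruvate dehydrogenase 15 were higher and none was lower (1.38 and 1.71). On the spiked-in scale, where all genes shift down alike, the mean medians of these lists were -0.08 and -0.12. Their distance from the median of all genes is unchanged there by construction. The shift was not equal over the chain. All 8 kept subunits of complex III and all 4 of complex II were called higher, 27 of 37 of complex I, 8 of 13 of complex IV and 5 of 15 of ATP synthase, whose median was 0.69 in the mean of both genotypes against 1.51 for complex I, 1.64 for complex II, 1.90 for complex III and 1.95 for complex IV.

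Among single genes, the ubiquitous oxidase subunit Cox6b1 differed by 3.41 and 3.23, and Uqcrc1, a core subunit of complex III, by 2.19 and 2.90. Citrate synthase Cs, which opens the TCA cycle, differed by 1.57 and 2.75, with its call lost for the brightest probe and in all 3 other scalings. Pyruvate carboxylase Pcx read 15.16 and 14.46 in tissue and 13.52 and 10.35 in WT and KO culture, and its call too was lost in all 3 other scalings. Cox6a2, an oxidase subunit of striated muscle, differed by 3.88 in WT and 0.02 in KO.

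One subunit went the other way by a wide margin. Ndufb10, part of complex I, read 15.70 in WT culture and 14.69 in KO culture but 6.14 in WT tissue, where it was not well above background, and 6.45 in KO tissue. It has a single probe, whose mean signal in the scanner files was 117907 and 23932 in WT and KO culture and 48.6 and 84.2 in WT and KO tissue, against local backgrounds of 50, 44, 39 and 56. It is the lowest of all 16256 genes in the mean difference, while no other of the 78 genes of the list was called lower. These spots carried none of the outlier flags used, and the cause was not tested.

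Genes of fatty acid oxidation were mostly higher in tissue. Of 29 genes, 25 were higher in tissue in both genotypes and none was lower, with a median of 2.11 in WT and 3.05 in KO. Cpt1b, the muscle and brown fat form of the enzyme that admits fatty acids to mitochondria, read 15.07 and 14.79 in tissue and 8.24 and 7.75 in culture, 114-fold and 131-fold. Its liver form Cpt1a, by contrast, differed by -0.77 and -0.74. Ehhadh, a peroxisomal enzyme of the pathway, was higher by 5.67 and 5.53, the short-chain dehydrogenase Acads by 3.95 and 3.33, and the peroxisome factor Pex11a by 2.92 and 5.79.

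Breakdown of branched-chain amino acids, another fuel of brown fat, followed. Of 19 genes 17 were higher in tissue in both genotypes and none was lower, with medians of 1.79 and 1.96. Bckdha and Bckdhb, subunits of the committed dehydrogenase, were higher by 3.47 and 4.10 and by 3.36 and 3.25. Propionyl-CoA carboxylase subunit Pccb was higher by 3.0 and 3.36. Acadsb and Mccc2 were the members below 2-fold in both genotypes, with 0.97 and 0.42 and with 0.94 and 0.83.

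Genes of lipid synthesis had no common direction. Of 26 genes of fatty acid and triglyceride synthesis 9 were higher in tissue and 5 lower, and the median of 0.31 turned to -0.06 with median centring, to -0.71 without normalisation and to -1.21 on the spiked-in scale, staying at 0.10 above all genes with median centring. Higher in tissue were Lpin1, which makes diacylglycerol (3.51 in WT and 6.43 in KO), Acacb, the mitochondrial acetyl-CoA carboxylase (4.22 and 5.27), the triglyceride enzyme Dgat2 (3.16 and 4.88) and the lipogenic factor Thrsp (2.57 and 5.32). The core lipogenic enzyme Fasn differed by only -0.02 and 0.50. Lower in tissue were the desaturases Scd2 (-3.66 and -1.48), Fads1 (-1.93 and -2.55) and Fads2 (-2.32 and -2.55), while the adipocyte desaturase Scd1 was higher (1.23 and 2.88).

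Cholesterol synthesis was lower in tissue. Of 22 genes 9 were lower in both genotypes and none was higher, with medians of -0.93 and -1.47 and a negative median under each of the scalings. Idi1, which isomerises the isoprene unit, read 9.72 and 10.04 in culture, 7.04 in KO tissue and 6.52 in WT tissue, where it was not well above background and at least 9.20-fold lower. The later enzymes Msmo1 (-2.46 and -3.66), Sqle (-2.06 and -2.76) and Cyp51 (-2.07 and -2.84) were lower.

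Glycolysis as a list had no common direction, with 4 genes higher, 3 lower and a median of -0.20 over 19 genes. Inside it, the lactate dehydrogenase subunit Ldhb was higher in tissue by 3.07 and 4.51 and the hexokinase Hk2 by 2.47 and 3.31. Both calls were lost with no normalisation, and that of Hk2 also on the spiked-in scale. The lactate exporter Slc16a3 was lower (-2.48 and -4.10) and the basal glucose transporter Slc2a1 (-2.49 and -1.64). Ldha, the other dehydrogenase subunit, differed by 0.05 and 0.18. The hypoxia list split in the same manner, with 7 of 18 genes higher and 7 lower and a median of 0.10 that lay below that of all genes with median centring or none. In it, Vegfa, the vessel growth factor, was higher by 2.34 and 2.98, and the vasoactive peptide Adm (-3.11 and -3.85) and the collagen hydroxylase P4ha1 (-3.14 and -3.40) were lower.

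**Figure D4:**
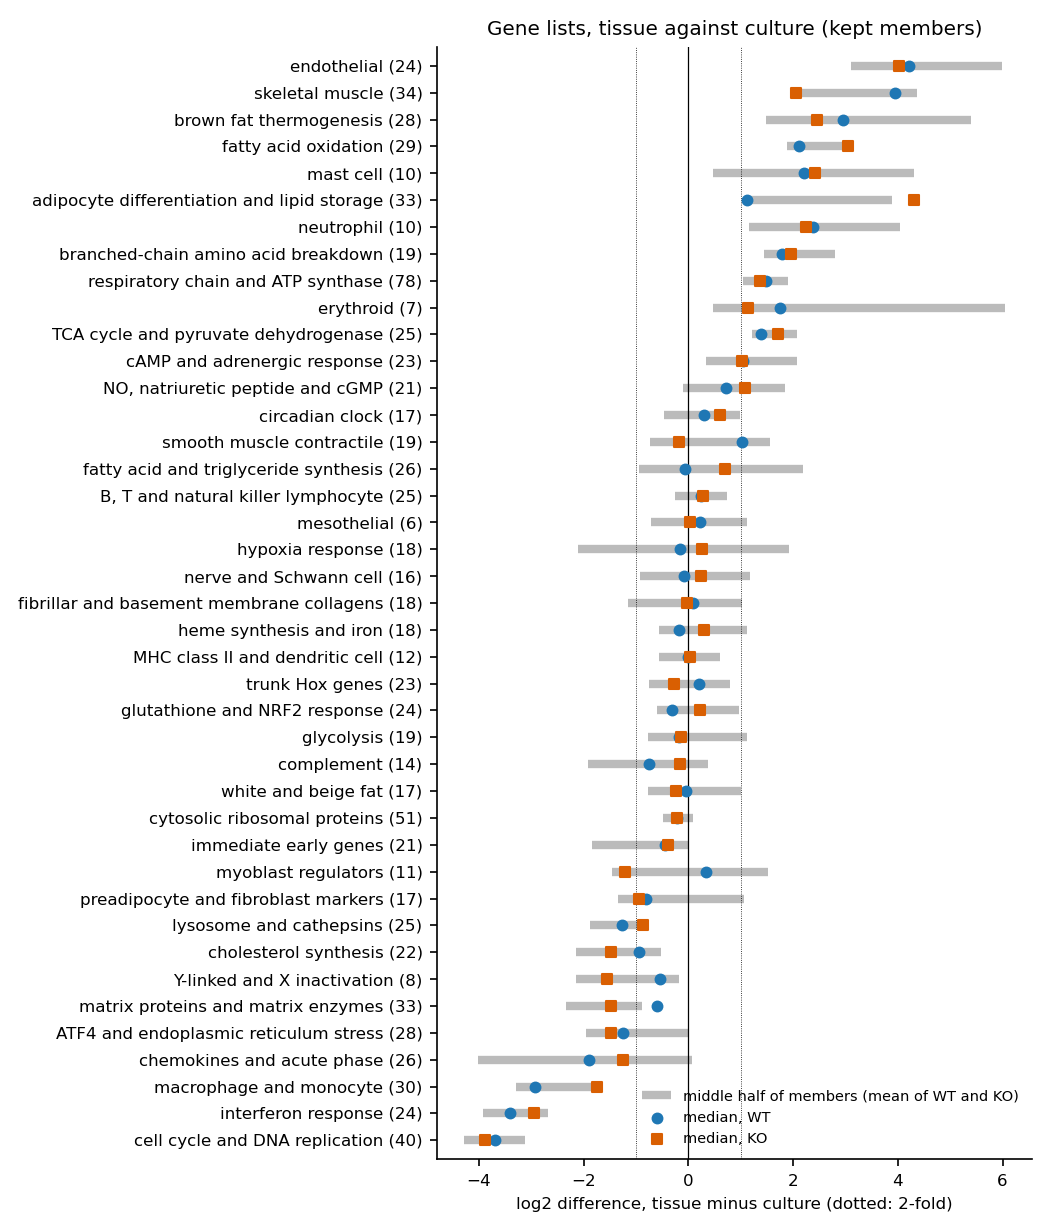
Median log2 difference between tissue and culture of each gene list in WT (blue circles) and KO (orange squares), with the interquartile range of its members in the mean of both genotypes as a grey bar and the number of kept members in brackets. The dotted lines mark 2-fold. Both cell cycle medians lie furthest left, and the endothelial medians and the KO median of the adipocyte list lie above 4. On the spiked-in scale 17 of the 41 lists, the respiratory and TCA lists among them, change side.

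Proliferation separated the materials almost completely. Of 40 genes of the cell cycle and DNA replication, 38 were lower in tissue in both genotypes and none was higher, with medians of -3.69 in WT and -3.87 in KO and a negative median under each scaling. Bub1, a checkpoint kinase of mitosis, read 7.24 and 6.86 in tissue and 13.03 and 13.46 in culture, 55.2-fold and 96.7-fold lower in tissue. Mki67, the common marker of dividing cells, read 10.56 and 9.89 against 14.64 and 13.77. Mcm5, of the replication helicase, was lower (-5.69 and -4.91), the mitotic motor Kif20a (-5.07 and -5.85) and the cyclin Ccnb1 (-4.31 and -5.0). The cultures carried this group at similar levels, with a median KO minus WT difference of -0.07 between cultures. Of the 40 genes, 2 were at least 2-fold higher in KO than in WT culture and none was lower. Over all genes these shares were 2.02% and 3.1%.

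The members above 0, Ccnd1 and Ccnd2, were D-type cyclins, which respond to growth signals in cells of many states. Ccnd1 was higher in tissue by 2.59 in WT and 0.71 in KO, and Ccnd2 by 2.2 and 0.65. The cycle inhibitor Cdkn2a, which encodes the senescence-associated proteins p16 and p19, was not well above background in either tissue (6.03 and 5.93) and read 12.97 in WT and 13.85 in KO culture, at least 123-fold and 241-fold higher. It had the largest bound of all genes not well above background in either tissue. Genes of the cytosolic ribosome were close in both materials, with 45 or more of the 51 below 2-fold in either genotype and a median of -0.27.

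Endothelial transcripts were higher in tissue without exception. All 24 kept of 25 endothelial genes were called higher in both genotypes, with medians of 4.22 in WT and 4.02 in KO and the same direction under each scaling. Cldn5, a tight junction protein of vessels, read 15.52 and 15.05 in tissue and 6.73 in both cultures, 442-fold and 320-fold. Gpihbp1, which holds lipoprotein lipase on capillaries, was 131-fold and 121-fold higher in tissue. The endothelial guidance receptor Robo4 and the capillary glycoprotein Emcn were not well above background in either culture, and were at least 349-fold and 272-fold, and at least 161-fold and 128-fold, higher in WT and KO tissue. Of the 24 genes, 18 were still above background in WT culture and 16 in KO culture on at least 1 probe. In bulk RNA fewer cells of a type and less RNA per cell cannot be told apart.

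Vessel wall genes gave a mixed picture. Rgs5, a marker of pericytes, was at least 51.7-fold and 32.5-fold higher in WT and KO tissue and not well above background in culture, and the smooth muscle myosin Myh11 was higher by 3.93 and 3.09. Actin-associated genes of the same list differed between cultures: Tagln read 11.79 and 11.37 in tissue, 12.86 in WT culture and 16.05 in KO culture. The myosin light chain Myl9 read 13.92, 13.38, 14.74 and 17.31 in the same order, and Acta2, the smooth muscle actin, 10.47, 9.70, 10.23 and 11.60. The list of 19 had a median of 1.02 in WT and -0.17 in KO, and 9 of its members were 2-fold higher in KO than in WT culture, against 2.02% of all genes. In the mean of both genotypes its median was 0.32, which turned to -0.05 relative to all genes with median centring or none.

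Skeletal muscle transcripts were higher in tissue, and far more so in WT. Of 34 kept genes 25 were called higher in both genotypes and none lower, with a median of 3.95 in WT and 2.06 in KO, positive in the mean under each scaling. Acta1, the actin of skeletal muscle, read 16.61 in WT tissue, 14.37 in KO tissue, 10.04 in WT culture and 11.58 in KO culture. Myh7, the slow myosin, read 15.78 and 12.78 in tissue and 8.61 and 8.21 in culture. Between the tissues, 33 of the 34 genes were lower by 2-fold or more in KO, against 3.0% of all genes, and between the cultures none was lower and 1 higher. The summed signal of the list was 19.18 in WT tissue, 16.86 in KO tissue, 13.74 in WT culture and 14.20 in KO culture on the log2 scale.

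Sln, a small regulator of the muscle calcium pump, read 15.61 and 13.24 in tissue and 7.68 and 7.12 in culture. Some of the thermogenic genes that were lower in KO tissue, Fabp3 (13.86 in WT tissue against 11.18 in KO tissue) among them, are also made in muscle, and the part of muscle RNA in the results for tissue was not tested. Of 11 myoblast regulators 3 were lower in tissue and 2 higher, the embryonic myosin Myh3 (4.47 and 3.02) among the latter. Myog, the factor of myoblast fusion, read 11.43 and 11.90 in culture and 10.32 and 8.15 in tissue, and Myod1 8.25 and 9.13 against 7.21 and 7.43. The call for Myog was lost when outlier spots were kept.

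**Figure D5:**
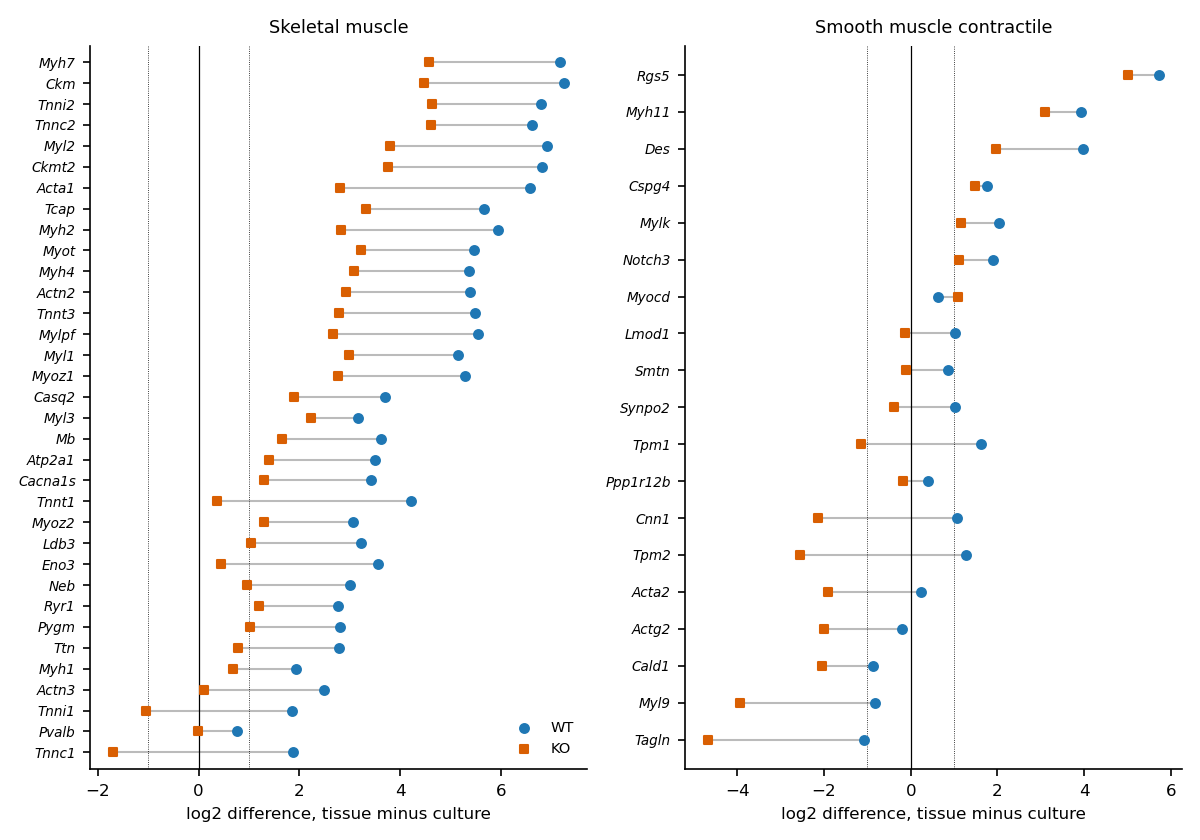
Log2 difference between tissue and culture for each kept gene of the skeletal muscle list (left) and of the smooth muscle list (right), in WT (blue circles) and KO (orange squares), joined by a line. Nearly all skeletal muscle genes lie right of 0 with WT further out, and in the smooth muscle list Tpm2, Tagln and Cnn1 have the widest gaps between genotypes.

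Blood and mast cell genes were found mainly in tissue. Hba-a1, the alpha chain of haemoglobin, read 17.16 and 16.76 in tissue and 6.98 and 7.01 in culture (1157-fold in WT and 860-fold in KO). In the mean of both genotypes this was the largest difference of all genes well above background in the 4 channels. In KO alone Cidea differed more (1176-fold). Alas2, the heme enzyme of red cells, was at least 191-fold and 119-fold higher in tissue. The erythroid list as a whole had 7 kept genes, 4 of them called, and its median of 1.44 was -0.08 on the spiked-in scale. Among neutrophil genes 7 of 10 were called higher and none lower, and S100a9, an abundant protein of neutrophils, was at least 320-fold and 414-fold higher. Among mast cell genes 6 of 10 were called higher and none lower, and the protease Cpa3 was at least 111-fold and 152-fold higher.

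Macrophage transcripts went the other way. Of 30 macrophage and monocyte genes 22 were lower in tissue in both genotypes and 2 were higher, with medians of -2.92 in WT and -1.74 in KO and a negative median under each scaling. Adgre1, which encodes the F4/80 antigen of mouse macrophages, read 8.53 and 8.47 in tissue, 12.67 in WT culture and 10.91 in KO culture. Spp1, the secreted glycoprotein osteopontin, read 7.32 and 8.97 in tissue and 13.30 and 13.37 in culture. The microglia and macrophage receptor Trem2 was lower (-4.53 and -2.63), the calcium-binding protein Aif1 (-4.22 and -3.12) and the membrane protein Ms4a7 (-4.82 and -3.39). All 30 genes were above background in both tissues and in WT culture and 29 in KO culture, and the summed signal was 15.45 and 15.38 in WT and KO tissue and 18.76 and 17.09 in WT and KO culture. Of the 30 genes, 20 were at least 2-fold lower in KO than in WT culture, against 3.1% of all genes, and none was higher.

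The exceptions were receptors of particular macrophage states. Cd163, the haemoglobin scavenger receptor of resident macrophages, read 11.12 and 11.43 in tissue and 8.34 and 7.13 in culture, 6.88-fold and 19.6-fold higher in tissue. Ccr2, the chemokine receptor of monocytes, was higher by 1.1 in WT and was not well above background in KO culture. Genes of the lysosome, an organelle prominent in macrophages, were lower in tissue in 9 of 25 and higher in none, with medians of -1.27 and -0.86. Ctss, a cathepsin of antigen-presenting cells, read 12.14 and 12.12 in tissue, 16.61 in WT culture and 13.51 in KO culture. Lymphocyte genes had no common direction over scalings (4 of 25 higher, 1 lower, with a median of 0.26 that became -1.27 on the spiked-in scale).

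Interferon-stimulated genes, which cells switch on in response to virus or to interferon, were lower in tissue as a group. Of 24 genes 22 were called lower in both genotypes and none higher, with medians of -3.40 in WT and -2.95 in KO and a negative median under each scaling. Cxcl10, a chemokine that attracts T cells, read 6.93 and 6.74 in tissue and 14.88 and 14.12 in culture, 247-fold and 166-fold lower in tissue. Ifit1, which binds foreign RNA, read 9.11 and 8.10 against 14.20 and 14.11. Ifit3 was lower (-4.92 and -5.22) and Oas1a, a sensor of double-stranded RNA (-4.50 and -4.09). The only genes below 2-fold in either genotype were the signalling factor Stat2 (-0.98 and -1.1) and Rsad2 (-2.62 and -0.97). The macrophage list moved with this one, and its part in it was not tested.

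The promoters of this group were searched for a letter pattern. Interferon regulatory factors and the ISGF3 complex bind elements built on repeated GAAA. In the 250 bases before the start of each gene (RefSeq, GRCm38.p6), a GAAA followed after any 2 bases by another GAAA was searched on both strands. It occurred in 10 of the 19 interferon genes found in the promoter table and in 3.46% of 27025 genes with such a sequence. A match is a description of the letters and not a site. It was 1 of 8 patterns searched over 7 lists, the others being the CCAAT box, the E-boxes CAGCTG and CACGTG, the cell cycle element TTTGAA, the cAMP element TGACGTCA, the ATF4 element TGATGNAAT and the NF-kappaB consensus. The 4 genes of the list with the largest differences each held a match, and these stretches are shown on the strand of the gene with the matches in capitals, to let the spacing and orientation be seen.
Cxcl10: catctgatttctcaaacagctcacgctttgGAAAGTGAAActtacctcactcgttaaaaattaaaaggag
Ifit1: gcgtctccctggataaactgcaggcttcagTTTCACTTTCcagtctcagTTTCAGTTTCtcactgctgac
Ifit3: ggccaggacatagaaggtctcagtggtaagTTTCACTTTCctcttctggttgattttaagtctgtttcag
Oas1a: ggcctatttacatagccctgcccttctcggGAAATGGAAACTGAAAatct

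The Cxcl10 stretch lies at chr5:92349063-92349132 on the minus strand and the Oas1a stretch at chr5:120907526-120907575 on the minus strand. The Ifit1 stretch is at chr19:34640755-34640824 and the Ifit3 stretch at chr19:34583343-34583412, both on the plus strand. In Cxcl10 and Oas1a the match reads along the gene strand, and in Ifit1 and Ifit3 its reverse complement does. Ifit1 holds 2 matches within its stretch and Oas1a 2 that overlap. Cxcl10's match starts 213 bases and the first of Oas1a 20 bases before the start of the gene. For comparison, CCAAT was found in 23 of 31 cell cycle genes and in 15 of 15 cholesterol genes against 37.5% of all genes. It was also found in 21 of 27 genes of the ATF4 and endoplasmic reticulum stress list, but in 2 of 19 chemokine and acute phase genes. CAGCTG was found in 14 of 28 skeletal muscle genes against 14.7%. The repeated GAAA was found in 3 of 19 chemokine and acute phase genes, and the ATF4 element in 1 of 27 genes of the ATF4 list against 0.91% of all genes. TTTGAA was found in 9 of 31 cell cycle genes against 18.3% of all genes. The NF-kappaB consensus was found in 0 of 19 chemokine and acute phase genes against 0.16%.

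Chemokines and acute phase genes were largely with the cultures. Of 26 genes 13 were lower in tissue and 3 higher, with medians of -1.90 and -1.24 and a negative median under each scaling. Ccl2, which recruits monocytes, read 9.27 and 8.56 in tissue and 14.96 and 15.88 in culture, 51.5-fold and 161-fold. Ccl7 was lower (-4.81 and -6.33), Ccl5 (-4.81 and -5.18), and the pattern recognition protein Ptx3 (-4.86 and -6.79). Higher in tissue were haptoglobin Hp (1.39 and 2.58), the stromal chemokine Cxcl12 (2.45 and 1.26) and Lcn2, which was at least 2.36-fold and 3.68-fold higher and not well above background in culture. In the complement list 6 of 14 genes were lower and Cfd, shared with the adipocyte list, was higher.

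Genes of the unfolded protein and amino acid response were also lower in tissue, with 16 of 28 lower, 4 higher and medians of -1.24 and -1.48 (negative under each scaling). Mthfd2, a mitochondrial folate enzyme of dividing cells, read 7.47 and 7.42 in tissue and 12.17 and 12.07 in culture. The serine synthesis enzymes Psat1 (-2.55 and -3.65) and Phgdh (-2.33 and -2.65) were lower, as was the chaperone Hspa5 (-1.73 and -2.50). Ddit4, a stress-induced inhibitor of mTORC1, was higher in tissue by 2.41 and 2.96, a call lost with no normalisation and on the spiked-in scale. Of 21 immediate early genes, 7 were lower, 2 higher and 11 below 2-fold in WT. Egr2 and Fos, quick responders to serum and stimulation, were lower (-3.78 and -3.81 for Egr2, -2.78 and -3.13 for Fos), and Btg2 was higher by 1.92 and 2.81.

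Matrix genes were lower in tissue more often than higher. Of 33 matrix proteins and enzymes 13 were lower and 1 higher, with a median of -0.60 in WT and -1.48 in KO, negative under each scaling. Ccn5, a secreted matricellular protein, read 11.36 in WT and 14.22 in KO culture and was not well above background in WT tissue. The collagenase Mmp13 was not well above background in either tissue and at least 36.4-fold and 19.2-fold higher in culture. Ccn2, a target of stretch and TGF-beta signalling, read 10.46 and 9.40 in tissue, 10.47 in WT culture and 14.04 in KO culture, so its difference was -0.02 in WT and -4.64 in KO. Among collagens 4 of 18 were higher and 4 lower, and the median of 0.08 changed side relative to all genes with median centring or none. The basement membrane chains Col4a1 (2.38 and 2.43) and Col4a2 (2.50 and 2.18) were higher in tissue, and the fibrillar chains Col1a2 (-1.26 and -1.54) and Col5a2 (-1.14 and -1.72) were lower. The calls for Col4a1 and Col4a2 were lost with no normalisation and on the spiked-in scale.

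Precursor and fibroblast markers split as well, with 4 of 17 higher and 5 lower and a negative median under each scaling. Pi16, a marker of early precursors in the fat interstitium, was higher in tissue by 3.56 and 3.08, and Dlk1, the preadipocyte factor, by 1.97 and 1.78. The precursor receptor Pdgfra was lower (-1.81 and -1.64) and the stem cell antigen Ly6a (-2.85 and -2.54). Between the cultures 2 of the 17 were 2-fold higher in KO and none was lower, against 2.02% and 3.1% of all genes.

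Signalling to brown fat was read from 2 lists. Of 23 genes of the cAMP and adrenergic response 11 were higher in tissue and 1 lower, with a median of 1.09 in the mean that became -0.44 on the spiked-in scale. The regulatory subunit Prkar2b of protein kinase A, the form of adipocytes, was higher by 2.13 and 3.80, while the ubiquitous Prkar1a was lower (-1.76 and -1.73). The call for Prkar2b was lost with no normalisation and on the spiked-in scale. Of 21 kept genes of nitric oxide, natriuretic peptide and cGMP signalling, the pathway of PKGI, 8 were higher in tissue and 2 lower, with a median of 0.74 that became -0.79 on the spiked-in scale. Nos3, the endothelial nitric oxide synthase, read 11.1 and 11.04 in tissue and 6.92 in WT culture. The natriuretic peptide receptor Npr1 was at least 3.72-fold and 2.62-fold higher in tissue, and its clearance partner Npr3 was lower (-1.36 and -2.36). Gucy1b1, the beta subunit of the nitric oxide receptor, was lower (-1.35 and -2.90), and its alpha partner Gucy1a1 was below 2-fold (-0.60 and -0.62).

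The remaining lists showed no large shift of their median. Of 16 nerve and Schwann cell genes 4 were higher in tissue and 1 lower, of 6 mesothelial genes 1 and 1, and of 12 genes of MHC class II and dendritic cells none and 1, with medians of 0.10, 0.26 and 0.07 that were negative with no normalisation and on the spiked-in scale. The myoblast regulators had a median of -0.49 that lay above that of all genes with median centring or none. Of 17 clock genes 1 was higher and 3 lower (median 0.36), of 24 genes of the NRF2 response 4 and 5 (0.0095), of 18 genes of heme synthesis and iron 4 and 2 (0.077), and of 23 trunk Hox genes 2 and 3 (0.060), and these medians turned negative in each of the other scalings. Those of the NRF2, heme and Hox lists also lay below the median of all genes with median centring or none.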

How the data were processed

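Total RNA of 4 samples was hybridised as 2 two-colour Agilent arrays, 1 sample a channel. The deposited scanner files hold, per the file headers, Agilent Feature Extraction 9.5.1.1 output (protocol GE2-v5_95_Feb07), and mean signal and median local background, both intensities, were used. Spots with a non-uniformity or population outlier flag in either dye were left out on both arrays (1215 and 203 spots), leaving 41995 of 43379 gene spots. No spot was saturated.

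The background was corrected with normexp (offset 50) in limma 3.58.1 (R 4.3.3) and gene spots were quantile-normalised over the 4 channels. The offset understates folds of dim genes. Spots of a probe were averaged, and probes well above background in at least 1 channel were kept and averaged by gene (Python 3.11.15, pandas 2.3.3). Of 41174 probes 8440 had no name in the RefSeq table, 23075 were named by accession, 6587 by symbol and 3072 by synonym. Of 19511 genes 16256 were kept. Between 62.4% and 73.7% of probes were well above background in a channel, which limits precision for the rest. The SD among repeated spots of a probe was 0.074 to 0.145 (log2). The median SD among probes of a gene was 0.477.

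Where a gene was not well above background in a channel, the fold is a bound ("at least") against the lowest signal of that channel well above background or the gene's own signal there, whichever is higher. The members and lists were chosen with earlier results of these data known. Genes were named by a rule: Prkg1 and known brown fat, adipocyte and sex-linked genes, the 15 highest and 15 lowest genes measured in all 4 channels, up to 10 each way with a bound, up to 4 called members of each list with the largest mean difference, and up to 6 each way with opposite WT and KO calls. Not all of these are printed, and others were named by role after their values were seen. Promoter sequences came from RefSeq (GRCm38.p6). The steps were checked on simulated data. The alternatives were other background corrections, scalings, filters, probe choices and call rules. The series' value table was not used here. Some genes are not reported here.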

Additional observations from a re-analysis of the deposited data

Results flagged for a closer look

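In 13 genes the difference between tissue and culture was past 2-fold in opposite directions in WT and KO, with 1 sample on each side; the 10 named here are up to 6 each way with the widest gap, and the difference between the genotypes was not tested in any of them. In each, a dye bias of the gene and a difference between genotypes cannot be told apart. Higher in WT tissue and lower in KO tissue than in the matching culture were mostly genes of contractile cells. Asb5, a muscle ubiquitin ligase adaptor, differed by 2.23 in WT and -2.81 in KO. Tpm2, a tropomyosin, differed by 1.27 and -2.55, and Cnn1, the calponin of smooth muscle, by 1.07 and -2.14. The slow muscle troponins Tnnc1 and Tnni1 differed by 1.87 and -1.70 and by 1.85 and -1.04. Bves, a membrane protein of muscle, differed by 1.07 and -2.15.

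In the opposite group, Xist differed by -2.87 in WT and 4.92 in KO. Rbp4, the retinol carrier, differed by -1.72 and 3.79, and Clec10a, a lectin of macrophages and dendritic cells, by -1.52 and 2.45. Abcg1, a cholesterol exporter, differed by -1.23 and 1.56.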

How the results depend on the processing

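Each channel held 1 sample, so there was no replicate to leave out. The WT and KO differences pair tissue with culture by genotype, with 1 sample on each side and array not separable from material. No test on these pairs was run, nor a fit of material with genotype as a block. The counts of called genes depended most on scaling: with median centring 1306 genes were higher and 3412 lower, with no normalisation 395 were higher, and on the spiked-in scale, an alternative added after seeing the data, 436 were higher and 10558 lower. Median centring kept 1213 of the 2057 higher and 2117 of the 2223 lower calls. The scanner's processed signals gave 3130 and 3485, and a 4-fold threshold 706 and 724. On the spiked-in scale the medians of the respiratory (-0.076), TCA (-0.12), erythroid (-0.084) and cAMP (-0.44) lists turned negative, as did Rps4x (-0.39), Ms4a1 (-0.22), Stmn2 (-0.038) and Krt8 (-0.32). Rps4x, a ribosomal protein, has 2 kept probes, at -0.29 and 2.565 in the mean difference, and the brightest is the one at -0.29. Why its probes differ was not tested. The other background corrections, filters and call rules kept the counts within 1.5 times, and genes near background are limited to bounds. Within that range, keeping outlier spots gave 1496 genes higher and 1603 lower. It kept 70.1% of the higher and 70.5% of the lower main calls, and 16 genes chosen by the naming rule lost their call. Among genes chosen by the naming rule, 13 lost their call with median centring and 51 with no normalisation. On the spiked-in scale 28 fell below the call and 5 changed sign. Not every such loss is stated beside its gene.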

Other observations

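Besides Cdkn2a, other transcripts were not well above background in tissue and clear in culture. Scg2, a granule protein of neuroendocrine cells, was at least 65.7-fold higher in WT culture and at least 202-fold higher in KO culture than in the matching tissue. Rspo2, a secreted enhancer of Wnt signalling, was at least 32.8-fold and 31.9-fold higher. These are values of single RNA samples.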
